A study of Mus musculus with 12 samples.

Results

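The interferon response genes described here are a set of 36 genes that interferons switch on, taken from a named list and measured in mouse liver. Each gene was read from a probe set annotated to that gene alone, and where several qualified, from the one with the highest mean over the 12 arrays. Of the 36 genes, 34 had such a probe set, out of 18193 genes measured in the same way. Isg15 was left out because its only probe set carries several gene symbols, and Ifi44 had no probe set under this rule. The 34 genes comprise 4 signalling and transcription factors, 4 sensors of nucleic acids, 17 effectors that are typical of the type I interferon response, and 9 genes that are typical of interferon gamma and of the immunoproteasome.

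Liver RNA was hybridised to Affymetrix Mouse 430 2.0 arrays, which read each transcript with sets of short probes. The 12 arrays form 3 groups of 4, all from C57Bl/6 mice aged 3 months: wild type mice given no agent, Atp7b-/- mice given no agent, and Atp7b-/- mice given supplemental zinc. Atp7b is the copper-exporting ATPase of hepatocytes, so both mutant groups lack it. Neither how much zinc was given, nor for how long, nor whether the mice were male or female is stated in the labels, and only the zinc-treated group is said to come from 4 mice, so the p-values measure the spread between arrays.

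Type I interferons bind a receptor found on nearly all cells and activate the ISGF3 complex, which contains Stat2 and Irf9 and binds interferon-stimulated response elements in the promoters of antiviral effectors. Interferon gamma, made by T and NK cells, acts through gamma-activated sequences and induces Irf1, the immunoproteasome and families of GTPases. In liver, hepatocytes, Kupffer cells and endothelial cells all respond to interferons.

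The promoters of Ifit1, Oas1a, Rsad2, Irgm1 and Igtp are shown because these genes fell in Atp7b-/- liver and their promoters carry the letters of these elements, and that of Psmb9 and Tap1 because these genes rose. The sequences are RefSeq's, from build GRCm38.p6, each read 5′ to 3′ on the strand given. The first 5 are the 120 bases before the start that the promoter table gives (the gene record of Oas1a reaches 120907544, so the last bases of its window lie inside that record), and the last is the whole stretch of 225 bases between the starts of Psmb9 and Tap1, which point away from each other. Capitals mark the letters GAAANNGAAA (response element) or TTCNNNGAA (gamma-activated sequence), searched on both strands, so the first motif also appears as its reverse complement.
Ifit1, chr19:34640769-34640888, plus strand: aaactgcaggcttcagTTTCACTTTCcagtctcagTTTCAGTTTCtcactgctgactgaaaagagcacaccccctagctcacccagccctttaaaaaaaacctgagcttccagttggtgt
Oas1a, chr5:120907526-120907645, minus strand: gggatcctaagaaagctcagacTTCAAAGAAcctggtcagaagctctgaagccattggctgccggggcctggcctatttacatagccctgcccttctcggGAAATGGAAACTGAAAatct
Rsad2, chr12:26456453-26456572, minus strand: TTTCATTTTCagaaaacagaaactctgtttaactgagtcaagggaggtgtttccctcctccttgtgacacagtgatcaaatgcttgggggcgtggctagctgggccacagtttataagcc
Irgm1, chr11:48871421-48871540, minus strand: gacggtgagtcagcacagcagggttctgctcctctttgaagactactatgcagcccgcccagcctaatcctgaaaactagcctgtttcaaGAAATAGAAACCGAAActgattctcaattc
Igtp, chr11:58199436-58199555, plus strand: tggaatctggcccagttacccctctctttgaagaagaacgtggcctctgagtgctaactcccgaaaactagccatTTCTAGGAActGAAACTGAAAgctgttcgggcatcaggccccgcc
Psmb9 and Tap1, chr17:34187331-34187555, plus strand: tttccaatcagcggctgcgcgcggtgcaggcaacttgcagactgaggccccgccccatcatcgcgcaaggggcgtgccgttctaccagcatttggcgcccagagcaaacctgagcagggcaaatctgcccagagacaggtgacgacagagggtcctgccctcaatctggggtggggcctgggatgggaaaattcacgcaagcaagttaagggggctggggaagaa

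In the Oas1a and Irgm1 promoters 2 copies of the response element overlap, and in Ifit1 there are 2 separate copies. The stretch between Psmb9 and Tap1 holds neither motif, which says only that these letters are not in this window. Windows from 250 bases before to 50 bases after the start were given for 26 of the 34 genes. The response element letters occurred in 14 of the 26 (53.8%), against 3.99% of the 27025 genes with such windows. The letters of the gamma-activated sequence, which read the same on both strands apart from the free bases, occurred in 7 of the 26 (26.9%), against 9.55% of all genes. By their change in Atp7b-/- against wild type liver, the response element was present in 7 of 11 genes that fell, in 1 of 6 that rose and in 6 of 9 that were not called. The gamma-activated sequence was present in 3 of 11, 2 of 6 and 2 of 9, in the same order. Of the genes that rose, Ifih1 carries the response element, and Psmb8 and Ifi35 carry the gamma-activated sequence.

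The arrays carried the liver's own transcripts: the 6 hepatocyte markers had values of 12.5 to 15.1 on every array, where all values ran from 2.22 to 15.2. Atp7b itself had a level of 8.60 ± 0.07 (SD, n = 4) in wild type, 7.11 ± 0.15 in Atp7b-/- and 6.83 ± 0.18 in zinc-treated Atp7b-/- liver, with no overlap between wild type and mutant arrays; where its probes lie relative to the mutation was not examined. Of the 12 arrays, 3 stood apart. The correlation of Atp7b-/- replicate 1 with the arrays of its own group had a median of 0.991, where the other 3 arrays had 0.996. In zinc-treated replicates 2 and 3 the markers of pancreatic acinar cells averaged 3.85 and 1.21 log2 units above wild type.

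In untreated Atp7b-/- liver the set split. Most type I effectors and 3 of the 5 interferon-induced GTPases were lower than in wild type, whereas Psmb9, Psmb8 and Tap1, which make and carry peptides for class I molecules, were higher. Of the 34 genes, 16 fell and 8 rose at an adjusted p under 0.05 (limma, Benjamini-Hochberg over all 18193 genes). Over all genes 10.3% fell and 14.3% rose. For 22 of the 34 genes no Atp7b-/- array overlapped the wild type range, against 26.4% of all genes. The median change of the 34 genes was -0.39 log2 units, and that of all genes was -0.05. Without Atp7b-/- replicate 1, 19 fell and 8 rose. The split over all genes depended on the scaling of the arrays: 1872 genes fell and 2608 rose with the deposited values, 3754 and 2127 after median centring, and 2514 and 2041 after quantile normalization. Among the 34 genes the corresponding counts were 18 and 7, and 16 and 5. After quantile normalization Ifih1 (adjusted p = 0.0979), Mx1 (0.0513), Mx2 (0.0679) and Ifi35 (0.181) were no longer called and Trim30a was (0.039), and after median centring Ifi35 was not called (0.0871) while Trim30a (0.0387) and Gbp2 (0.0279) were.

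**Figure D1:**
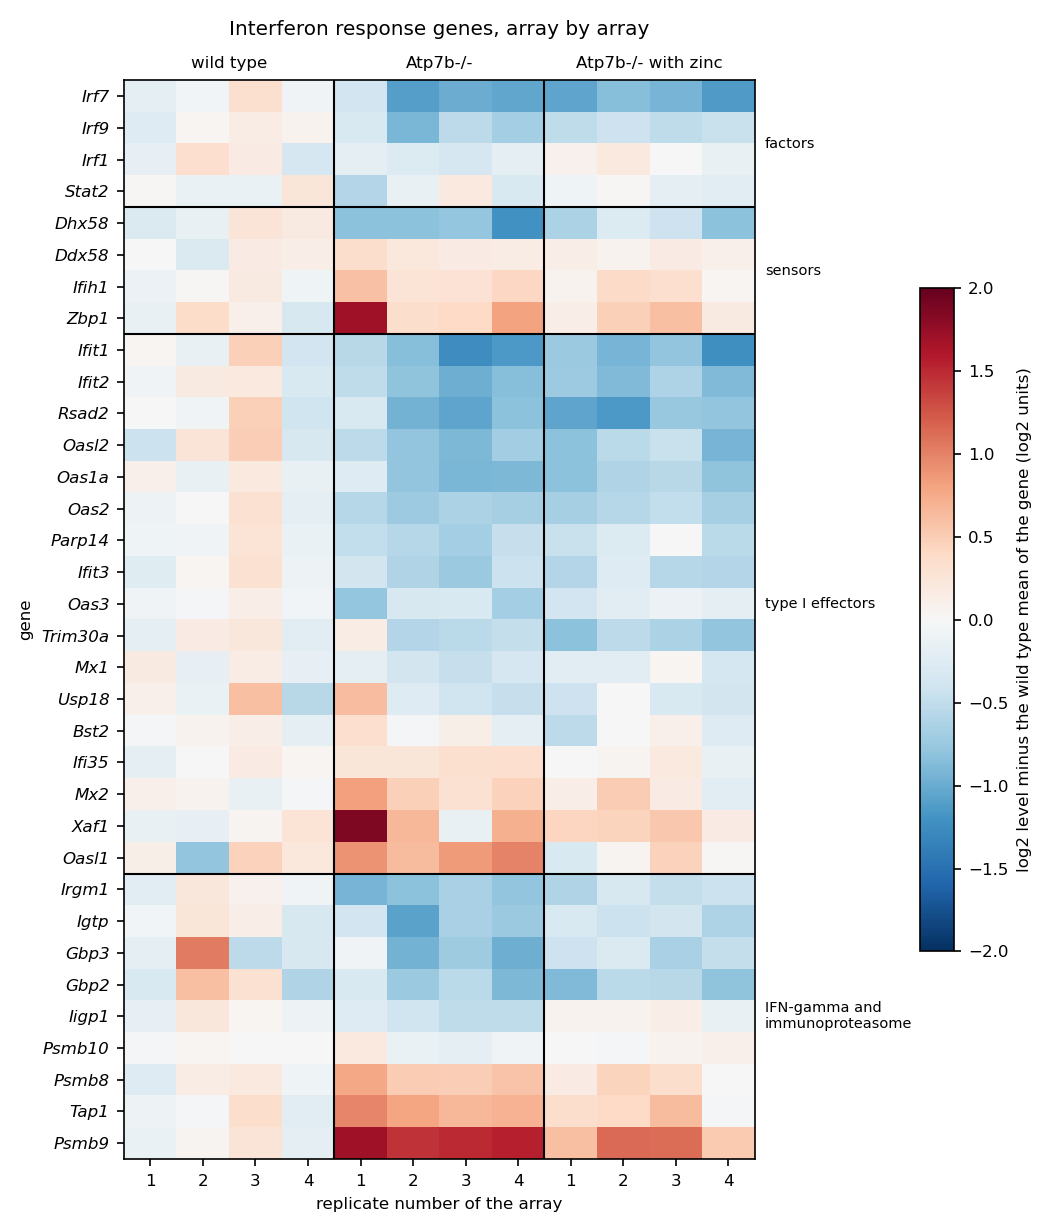
Log2 level of each of the 34 interferon response genes (rows) on each of the 12 arrays (columns), minus the gene's wild type mean; red is higher and blue lower, and lines separate the gene classes and the groups. The type I effectors are mostly blue in both mutant groups, while Psmb8, Psmb9 and Tap1 are red, most of all in untreated Atp7b-/- liver.

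Among the factors, Irf7, which amplifies the type I response, was the one that fell most. Its log2 levels were 8.26, 8.40, 8.78 and 8.39 in wild type, 8.08, 7.36, 7.46 and 7.42 in Atp7b-/-, and 7.40, 7.60, 7.52 and 7.32 in zinc-treated Atp7b-/- liver, in the order of replicates 1 to 4. Every mutant array lay below every wild type array, and Atp7b-/- replicate 1 was nearest to wild type. The change in Atp7b-/- was -0.88 (SE 0.15, adjusted p = 0.000998), or 0.544 of the wild type level. With zinc it was still -0.995 against wild type (SE 0.15, adjusted p = 0.00113).

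Irf9, the DNA-binding subunit of ISGF3, had levels of 7.97, 8.27, 8.39 and 8.30 in wild type, 7.92, 7.32, 7.70 and 7.55 in Atp7b-/-, and 7.73, 7.81, 7.72 and 7.78 with zinc. The groups did not overlap with wild type here either, although wild type replicate 1 and Atp7b-/- replicate 1 came close. Irf9 fell by 0.61 in Atp7b-/- (SE 0.12, adjusted p = 0.00241). The fall of 0.47 with zinc against wild type (adjusted p = 0.0292) was not called in fits without wild type replicate 2, 3 or 4, or without any 1 of the 4 zinc-treated arrays, with adjusted p up to 0.0873.

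Stat2, the partner of Irf9 in ISGF3, had means of 7.82 ± 0.18 in wild type, 7.61 ± 0.33 in Atp7b-/- and 7.69 ± 0.12 with zinc, and was not called in any comparison. The change in Atp7b-/- was -0.21, with a 95% interval of -0.52 to 0.10. Irf1, which interferon gamma induces, changed by -0.24 (interval -0.52 to 0.04, adjusted p = 0.187) and was called only in the fit without wild type replicate 4, at -0.36 (adjusted p = 0.0455).

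The sensors moved in different directions. Dhx58 encodes LGP2, a relative of the RNA sensors RIG-I and MDA5. Its levels were 6.75, 6.89, 7.31 and 7.22 in wild type, 6.22, 6.22, 6.26 and 5.83 in Atp7b-/-, and 6.42, 6.77, 6.63 and 6.23 with zinc. All Atp7b-/- arrays lay below all wild type arrays, and the zinc-treated arrays reached into the wild type range. Dhx58 fell by 0.91 in Atp7b-/- (SE 0.15, adjusted p = 0.000651). Its fall of 0.53 with zinc against wild type (adjusted p = 0.0457) was lost without wild type replicate 2, 3 or 4, zinc-treated replicate 1, 3 or 4, or Atp7b-/- replicate 2 or 3, with adjusted p up to 0.13.

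Ifih1, which encodes MDA5, rose by 0.39 in Atp7b-/- (adjusted p = 0.0173), from 9.49 ± 0.13 to 9.87 ± 0.14. Without wild type replicate 1 the rise was 0.35 and was not called (adjusted p = 0.0514). Ddx58, which encodes RIG-I, changed by 0.22 (interval 0.01 to 0.43, adjusted p = 0.113). Zbp1, a sensor of left-handed nucleic acids that can trigger necroptosis, had levels of 6.45, 6.96, 6.69 and 6.28 in wild type and 8.30, 6.95, 6.99 and 7.40 in Atp7b-/- liver. Replicate 1 of Atp7b-/- was well above the other 3, and replicate 2 lay within the wild type range. The rise of 0.81 (SE 0.25, adjusted p = 0.0309) was not called without wild type replicate 1, 3 or 4 or without Atp7b-/- replicate 4, with adjusted p up to 0.0771, and without Atp7b-/- replicate 1 it was called. It was also lost when all probe sets were averaged (0.0569), with the replicate block (0.0506) and in the fit of 2 groups (0.0584).

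Of the 17 type I effectors, 10 fell and 3 rose in Atp7b-/- liver, with a median change of -0.52. Without Atp7b-/- replicate 1, 11 fell and 3 rose. All 3 measured Ifit genes, neighbours on chromosome 19 whose proteins bind viral RNA, were among those that fell. Ifit1 had levels of 7.35, 7.17, 7.79 and 6.92 in wild type, 6.75, 6.45, 6.07 and 6.17 in Atp7b-/-, and 6.56, 6.37, 6.51 and 6.08 with zinc. Both mutant groups lay wholly below wild type and overlapped each other. Ifit1 fell by 0.95 (SE 0.18, adjusted p = 0.00221), Ifit2 by 0.78 (adjusted p = 0.000563) and Ifit3 by 0.54 (adjusted p = 0.00748). Ifit3 has a near-identical copy, Ifit3b, which short probes may not separate from it.

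The 2′-5′ oligoadenylate synthetases, which activate RNase L, fell. Oas1a, Oas2 and Oas3, close together on chromosome 5, fell by 0.72, 0.65 and 0.52 with adjusted p-values of 0.00223, 0.000346 and 0.00429. Oas2 had levels of 7.77, 7.87, 8.18 and 7.68 in wild type, 7.30, 7.15, 7.24 and 7.21 in Atp7b-/-, and 7.22, 7.30, 7.38 and 7.21 with zinc. The spread within both mutant groups was small beside the distance to wild type.

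The related genes Oasl1 and Oasl2, neighbours on the same chromosome, went opposite ways. Oasl2 fell by 0.72 (SE 0.19, adjusted p = 0.0125), from 5.59 ± 0.45 to 4.86 ± 0.16. Oasl1, which in mouse restrains translation of Irf7, rose. Its levels were 7.93, 7.02, 8.27 and 8.01 in wild type, 8.71, 8.44, 8.66 and 8.79 in Atp7b-/-, and 7.496, 7.87, 8.27 and 7.84 with zinc. Untreated Atp7b-/- arrays thus stood above all others, and wild type replicate 2 was the lowest. The rise was 0.84 (SE 0.22, adjusted p = 0.0155), a factor of 1.79. Zinc-treated arrays lay 0.78 below untreated ones without overlap, and this difference missed the threshold (adjusted p = 0.0562). It was called without wild type replicate 2 (adjusted p = 0.00791), wild type replicate 3 (0.0467) or zinc-treated replicate 3 (0.0451).

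The dynamin-like antiviral GTPases Mx1 and Mx2 also differed in direction. Mx2 rose by 0.52 (adjusted p = 0.0186), from 7.46 ± 0.11 to 7.98 ± 0.22, and was not called without wild type replicate 3 (adjusted p = 0.0547). Mx1 fell by 0.34 (adjusted p = 0.0371), from 4.77 ± 0.19 to 4.44 ± 0.11. The Mx1 call was lost without wild type replicate 1 or 3 or without Atp7b-/- replicate 2, 3 or 4, with adjusted p up to 0.106. The means of Mx1 in all groups, and of Ifit2 and Oasl2 in a mutant group, lay near or below the lower quartile of gene levels, which was 4.77 to 4.93 on these arrays.

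Rsad2, the antiviral enzyme viperin, had levels of 8.58, 8.52, 9.06 and 8.19 in wild type, 8.28, 7.65, 7.54 and 7.76 in Atp7b-/-, and 7.53, 7.44, 7.82 and 7.80 with zinc. Atp7b-/- replicate 1 alone reached into the wild type range. Rsad2 fell by 0.78 in Atp7b-/- (SE 0.18, adjusted p = 0.00759), and its other 2 probe sets gave differences of -1.05 and -0.77. Parp14, an ADP-ribosyltransferase, fell by 0.55 (adjusted p = 0.00463). Ifi35 rose by 0.29 (adjusted p = 0.0338), a call that was lost without wild type replicate 1 or 2 or Atp7b-/- replicate 2, 3 or 4, with adjusted p up to 0.0969, and its other probe sets differed by 0.14 and 0.04.

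The remaining 4 type I effectors were not called. Usp18, which removes Isg15 from proteins and dampens receptor signalling, changed by -0.13 with an interval of -0.66 to 0.41. Bst2, which tethers virus particles to the cell, changed by 0.06 (interval -0.25 to 0.36). Xaf1, which favours apoptosis, had levels of 10.02, 8.81, 7.997 and 8.86 in Atp7b-/- liver, replicate 1 being the highest and replicate 3 within the wild type range of 7.98 to 8.42. Its change of 0.77 (adjusted p = 0.0749) was called at 1.08 without Atp7b-/- replicate 3 (adjusted p = 0.0072), and its other probe set differed by -0.21. Trim30a, a ubiquitin ligase, changed by -0.36 (adjusted p = 0.103), and by -0.53 without Atp7b-/- replicate 1 (adjusted p = 0.00639).

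**Figure D2:**
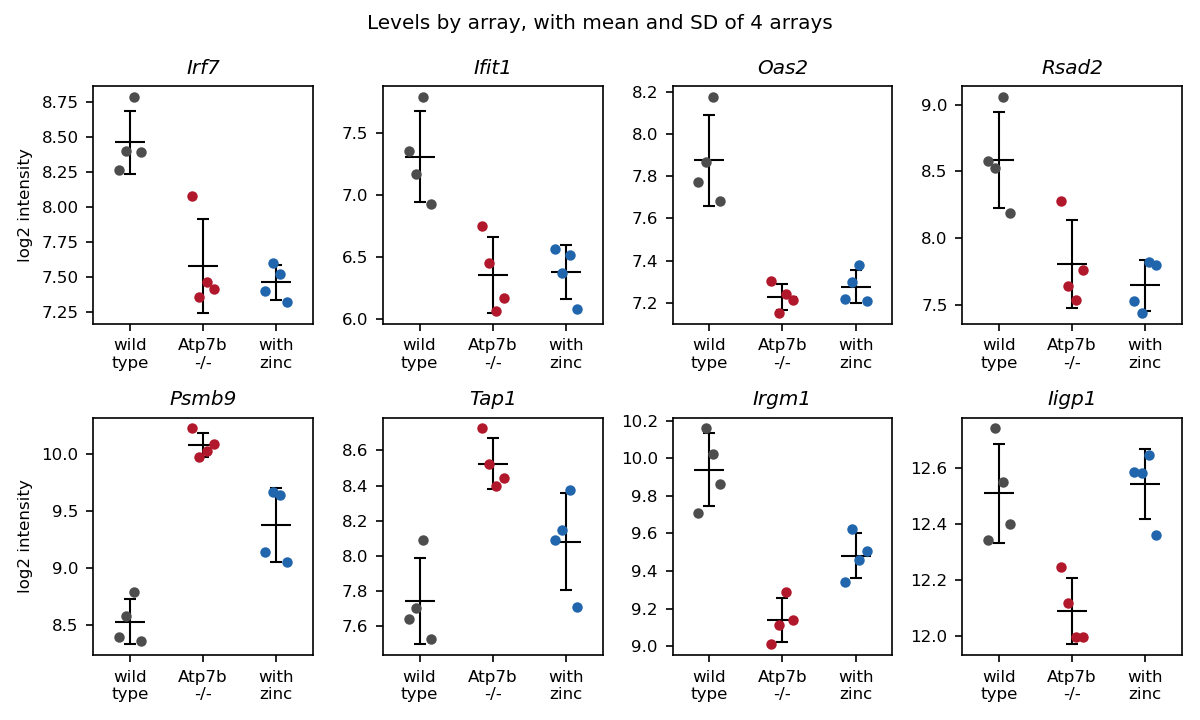
Log2 intensity on each array for 8 interferon response genes (points), with the mean and SD of the 4 arrays of each group (bars); the vertical scale differs between genes. Irf7, Ifit1, Oas2 and Rsad2 stayed low with zinc, while the zinc-treated means of Psmb9, Tap1 and Irgm1 lay between the other groups and that of Iigp1 at the wild type level.

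Of the 9 interferon gamma and immunoproteasome genes, 3 rose and 3 fell in Atp7b-/- liver, with a median of -0.42. That median joins genes with opposite behaviour. By the role of their proteins, a division made after the values were seen, Psmb8, Psmb9, Psmb10 and Tap1 had 3 that rose and 0 that fell (median 0.68), while the 5 GTPases Gbp2, Gbp3, Igtp, Irgm1 and Iigp1 had 0 that rose and 3 that fell (median -0.67). The median of the type I effectors minus that of these 9 genes was -0.10, so the medians of the classes lay close together although their members did not.

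Psmb9, which encodes an inducible catalytic subunit of the immunoproteasome, changed most. Its levels were 8.40, 8.58, 8.79 and 8.36 in wild type, 10.23, 9.98, 10.03 and 10.09 in Atp7b-/-, and 9.14, 9.67, 9.64 and 9.06 with zinc. The 3 groups did not overlap at all, with zinc-treated liver in between. Psmb9 rose by 1.55 in Atp7b-/- (SE 0.14, interval 1.24 to 1.86, adjusted p = 4.63e-06), a factor of 2.93.

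Psmb9 and Tap1 lie head to head on chromosome 17 with Psmb8 beside them, in the class II region of the major histocompatibility complex. Tap1, a subunit of the peptide pump into the endoplasmic reticulum, had levels of 7.64, 7.71, 8.09 and 7.53 in wild type, 8.73, 8.53, 8.40 and 8.44 in Atp7b-/-, and 8.09, 8.15, 8.37 and 7.71 with zinc. Untreated mutant arrays were all above the wild type and zinc-treated ones. The rise was 0.78 (SE 0.14, adjusted p = 0.0016). With the mean of all 4 Tap1 probe sets it was 0.13 and not called (adjusted p = 0.376), the other 3 probe sets having means of 3.35, 4.83 and 4.23 over all arrays. Psmb8, a second inducible catalytic subunit, rose by 0.58 (SE 0.12, adjusted p = 0.00366), from 9.49 ± 0.21 to 10.07 ± 0.13. Psmb10, the third inducible subunit, which lies on another chromosome, was at 9.34 ± 0.04 in wild type and 9.29 ± 0.17 in Atp7b-/-, a change of -0.05 with an interval of -0.23 to 0.13.

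The subunits of the ordinary proteasome core moved as well. Of 14 constitutive core genes, 12 rose in Atp7b-/- liver (85.7%, against 14.3% of all genes) and 0 fell, with a median of 0.39 and a range from 0.17 to 0.76. After median centring 11 rose, and after quantile normalization 10. Psmb1 was not called under either scaling (adjusted p up to 0.131), nor was Psmb3 after quantile normalization (0.0708). With all its probe sets averaged, Psma3 changed by 0.06 and was not called (adjusted p = 0.651). Psma1 rose by 0.74, Psmb7 by 0.53, Psmb4 by 0.61 and Psmb5, the constitutive counterpart of Psmb8, by 0.40. Psmb6, the counterpart of Psmb9, rose by 0.38 (adjusted p = 0.0044). Psmb9 thus changed more than each of these 14 genes, and Psmb10 less. No test of the difference between genes was made.

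**Figure D3:**
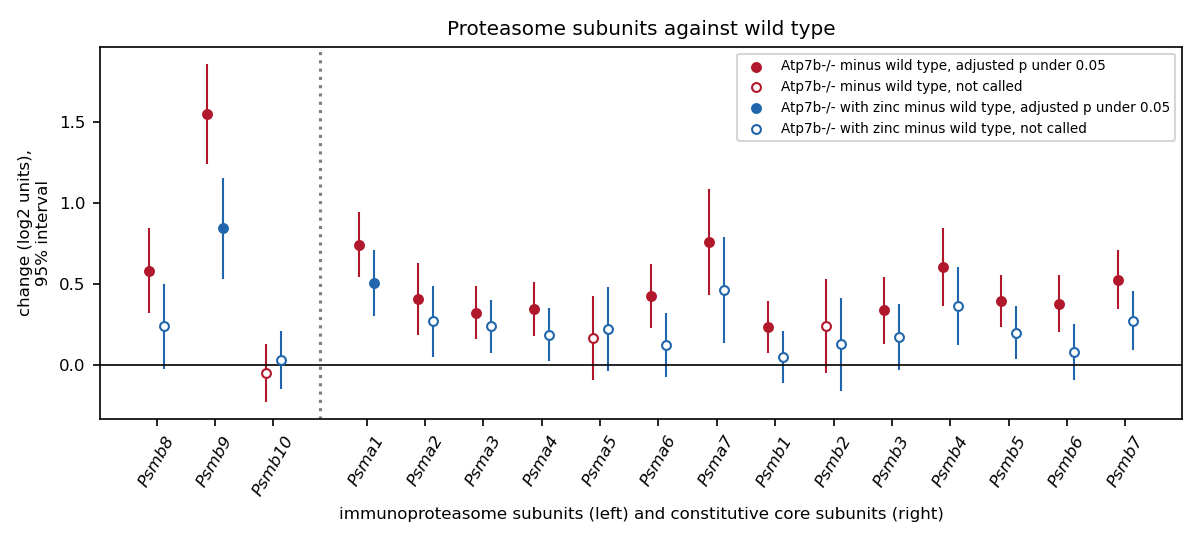
Log2 change against wild type (vertical axis, log2 units, with 95% intervals) of the 3 inducible proteasome subunits and the 14 constitutive core subunits in untreated (red) and zinc-treated (blue) Atp7b-/- liver; filled points have an adjusted p under 0.05. Psmb9 rose by 1.55 and 12 of the 14 constitutive genes rose by up to 0.76, while Psmb10 was near 0.

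The GTPases act against bacteria and parasites that live in vacuoles. Irgm1 had levels of 9.71, 10.16, 10.02 and 9.86 in wild type, 9.01, 9.11, 9.29 and 9.14 in Atp7b-/-, and 9.34, 9.62, 9.46 and 9.51 with zinc. The 3 groups were again separate, now with untreated Atp7b-/- lowest. Irgm1 fell by 0.80 in Atp7b-/- (SE 0.10, adjusted p = 8.75e-05), to 0.574 of wild type. Igtp, also called Irgm3, fell by 0.71 (SE 0.14, adjusted p = 0.00295), from 10.47 ± 0.25 to 9.76 ± 0.28.

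Iigp1 had levels of 12.34, 12.74, 12.55 and 12.40 in wild type, 12.25, 12.12, 11.996 and 11.998 in Atp7b-/-, and 12.59, 12.58, 12.64 and 12.36 with zinc. It was lower in every untreated mutant array than in any other array. Iigp1 fell by 0.42 (SE 0.10, adjusted p = 0.00847). The guanylate-binding proteins Gbp2 and Gbp3 changed by -0.62 (adjusted p = 0.0528) and -0.67 (adjusted p = 0.104) and were not called. Wild type replicate 2 was the highest array for both. Without Atp7b-/- replicate 1 both were called, at -0.73 (adjusted p = 0.0376) and -0.88 (adjusted p = 0.0407), and Gbp2 also without wild type replicate 1 (0.0484) or 4 (0.00887).

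**Figure D4:**
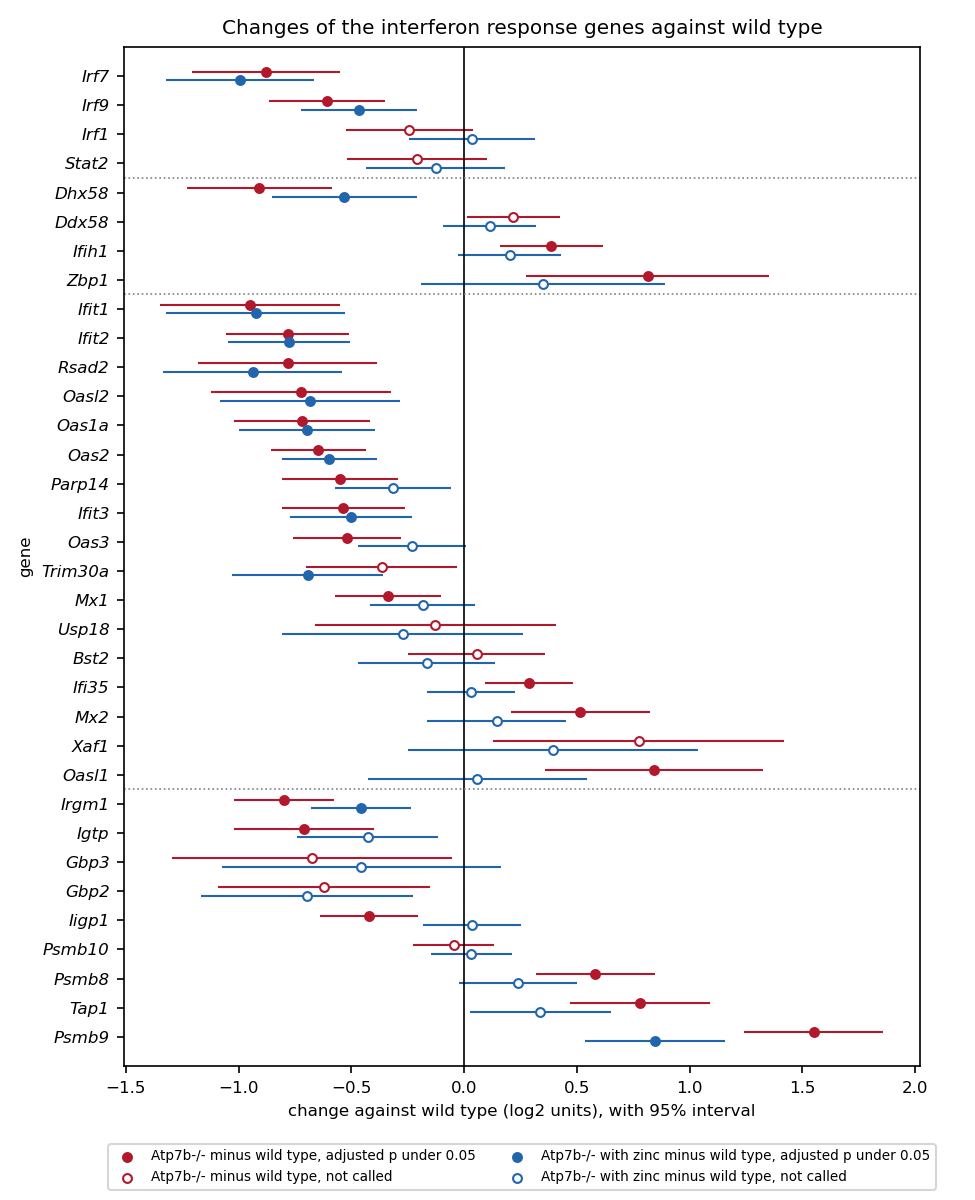
Log2 change against wild type (horizontal axis, log2 units, with 95% intervals) of all 34 genes in untreated (red) and zinc-treated (blue) Atp7b-/- liver, with dotted lines between the gene classes; filled points have an adjusted p under 0.05. In untreated liver 16 genes fell and 8 rose, and in zinc-treated liver 12 fell and Psmb9 rose.

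Zinc-treated Atp7b-/- liver was compared with untreated Atp7b-/- liver to see what zinc changed in the mutant. Only Iigp1 rose and only Psmb9 fell among the 34 genes. Over all genes 1.7% rose and 4.84% fell. Arrays did not overlap for 8 of the 34, against 15.3% of all genes, and the median change was 0.01, as for all genes. Of all genes 309 rose and 881 fell, against 396 and 696 after median centring and 528 and 652 after quantile normalization. Iigp1 rose by 0.45 (SE 0.10, adjusted p = 0.0168) and its zinc-treated mean of 12.54 ± 0.13 was close to the wild type mean of 12.51 ± 0.18. The call was lost without zinc-treated replicate 3 (adjusted p = 0.0514), without Atp7b-/- replicate 4 (0.0581) and without both zinc-treated arrays that carried pancreatic transcripts (0.152). Psmb9 fell by 0.70 (SE 0.14, adjusted p = 0.0107) and was called in all 12 fits that left out 1 array. Of the 14 constitutive proteasome core genes, 13 had estimates below 0, against 8584 of all 18193, with a median of -0.19. Arrays did not overlap for 5 of the 14, against 15.3% of all genes. Only Psmb6 was called (7.14%, against 4.84% of all genes), at -0.30. It was not called after median centring (adjusted p = 0.0963) or quantile normalization (0.0679).

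Of the 17 type I effectors 0 were called by limma between zinc-treated and untreated mutant liver, with a median of 0.01. An unadjusted p under 0.05 was found for 4 (1 higher, 3 lower), and over all genes for 3988 of 18193. Estimates for the 10 effectors that had fallen ran from -0.16 for Rsad2 to 0.29 for Oas3. They were 0.03 for Ifit1 (interval -0.37 to 0.42), 0.05 for Oas2 (-0.16 to 0.26) and 0.02 for Oas1a (-0.28 to 0.32), with 0.29 for Oas3 (0.05 to 0.53, adjusted p = 0.145), 0.24 for Parp14 (-0.02 to 0.49) and 0.15 for Mx1 (-0.08 to 0.39). For Irgm1 the estimate was 0.34 (adjusted p = 0.0649), without overlap between the groups, and it was called without wild type replicate 1 (0.0464) or 2 (0.049). For Tap1 it was -0.44 (adjusted p = 0.0876) and for Psmb8 -0.34 (adjusted p = 0.114), again without overlap.

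Against wild type, zinc-treated Atp7b-/- liver kept a lower level of many of these genes. Of the 34, 12 fell and 1, Psmb9, rose, whereas 2.73% of all genes fell and 4.89% rose. Arrays did not overlap for 13 of the 34, against 14.3% of all genes, and the median was -0.25. Of all genes 496 fell and 890 rose, against 705 and 767 after median centring and 710 and 851 after quantile normalization, and 12 of the 34 fell under either scaling. This comparison shares its wild type arrays with the first and its zinc-treated arrays with the second, so the values of the 3 comparisons are not independent. Of the type I effectors 8 fell: Ifit1 by 0.92, Ifit2 by 0.78, Ifit3 by 0.50, Oasl2 by 0.68, Oas1a by 0.70, Oas2 by 0.60, Rsad2 by 0.94 and Trim30a by 0.69. Irf7, Irf9, Dhx58 and Irgm1 were the other 4. The 3 effectors that rose in untreated liver had estimates near wild type, at 0.06 for Oasl1, 0.14 for Mx2 and 0.03 for Ifi35.

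Some of these calls lay near the threshold and depended on which arrays were kept. Ifit3 was not called without wild type replicate 2 or 3 or zinc-treated replicate 1, 3 or 4, with adjusted p up to 0.0759. Oasl2 was not called without wild type replicate 2 or 3, zinc-treated replicate 1, 2 or 4, or Atp7b-/- replicate 2 or 4, with adjusted p up to 0.112. Parp14, at -0.31 and not called (adjusted p = 0.139), was called without zinc-treated replicate 3 (0.0438), and Igtp at -0.43 (adjusted p = 0.0936) and Gbp2 at -0.70 (adjusted p = 0.0712) were called without wild type replicate 4 (0.0334 and 0.0122). Without both zinc-treated arrays that carried pancreatic transcripts 7 genes fell: the calls of Irf9 (adjusted p = 0.139), Ifit3 (0.0576), Oasl2 (0.0572), Rsad2 (0.0539) and Irgm1 (0.0511) were lost, in a fit with 2 zinc-treated arrays, while the median moved from -0.25 to -0.39.

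Psmb9 was 0.84 above wild type with zinc (SE 0.14, adjusted p = 0.00248), against 1.55 without. Of the other genes of its group, Tap1 lay 0.34 above (adjusted p = 0.19) and Psmb8 0.24 above (adjusted p = 0.281). The median of the 9 interferon gamma and immunoproteasome genes against wild type was 0.03 with zinc, that of the effectors -0.31, and the effectors' median minus that of the 9 genes was -0.35.

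Array by array, the mean of the 17 type I effectors relative to wild type was -0.05, -0.05, 0.27 and -0.16 in wild type, 0.02, -0.33, -0.43 and -0.33 in Atp7b-/-, and -0.47, -0.30, -0.22 and -0.50 in zinc-treated Atp7b-/- liver. Atp7b-/- replicate 1 lay among the wild type arrays and the other 7 mutant arrays below all of them. The mean of the 9 interferon gamma and immunoproteasome genes ran from -0.15 to 0.19 in Atp7b-/- and from -0.21 to 0.05 with zinc. Both lay within the wild type range of -0.21 to 0.28. The division of these 9 genes by protein role was made after the values were seen. Under it, the mean of Psmb8, Psmb9, Psmb10 and Tap1 was 0.91, 0.65, 0.62 and 0.69 in Atp7b-/-, above every array of the other groups. With zinc it was 0.28, 0.49, 0.54 and 0.15, and in wild type it ran from -0.13 to 0.21. In zinc-treated liver, replicates 2 and 3, which carried pancreatic transcripts, were the highest 2 arrays for this mean and for the type I effectors. Without them the median change of these 4 genes against wild type was 0.12 in place of 0.29. That of the effectors was -0.49 in place of -0.31. The part of the pancreatic transcripts was not tested. The mean of the 5 GTPases was -0.39, -0.79, -0.61 and -0.79 in Atp7b-/-, below all wild type arrays, which ran from -0.28 to 0.47.

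**Figure D5:**
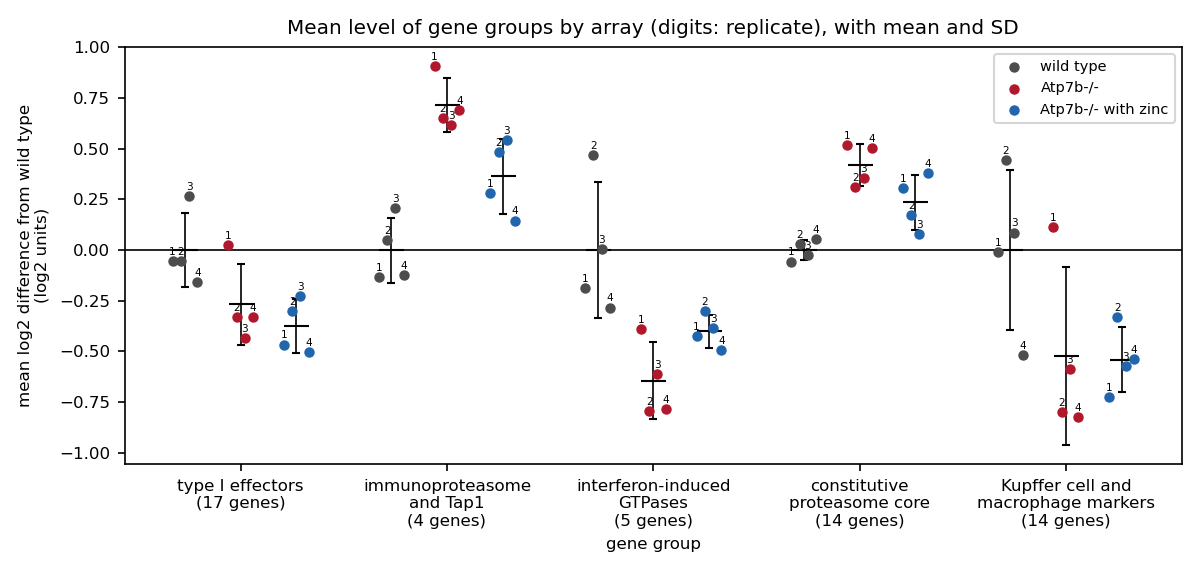
Mean log2 difference from wild type (vertical axis, log2 units) over the genes of 5 groups, on each array (points, with replicate numbers) and as mean and SD of 4 arrays (bars). The immunoproteasome with Tap1 and the GTPases were divided from each other after the values were seen. Atp7b-/- replicate 1 is the highest Atp7b-/- array in all 5 groups, at 0.02 in the type I effectors and 0.12 in the Kupffer cell and macrophage markers.

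Some markers of liver cells other than hepatocytes were lower in Atp7b-/- liver. The array means of these lists overlapped with wild type, except for endothelial cells and conventional dendritic cells. Of 14 Kupffer cell and macrophage markers, 7 fell and 0 rose in Atp7b-/- liver, where 10.3% of all genes fell and 14.3% rose. For all 14 the Atp7b-/- arrays overlapped the wild type range. With zinc against wild type 0 of the 14 were called by limma, and 9 had an unadjusted p under 0.05. Over all genes 3953 of 18193 had such a p. The mean of these markers relative to wild type ran from -0.52 to 0.44 in wild type. It was 0.12, -0.80, -0.59 and -0.82 in Atp7b-/-, and ran from -0.72 to -0.33 with zinc. The array of Atp7b-/- liver with the highest macrophage markers was thus also the one with the highest type I effectors. It was also highest in its group for markers of T and NK cells (0.12), B cells (-0.23), neutrophils (0.01) and plasmacytoid dendritic cells (0.11). Endothelial and conventional dendritic cell markers were instead highest in replicate 2. In wild type the macrophage markers were highest in replicate 2 and the effectors in replicate 3, and the same held with zinc. Of 8 endothelial markers 3 fell, of 5 B cell markers 1 fell and of 6 neutrophil markers 1 fell. Of 5 conventional dendritic cell markers 2 fell, with array means of -0.34 to -0.23 in Atp7b-/- against -0.12 to 0.06 in wild type. Those of the endothelial markers were -0.38 to -0.21 against -0.09 to 0.10. Of 12 T and NK cell markers, whose array means of level were 4.86 to 5.24, 0 were called by limma. An unadjusted p under 0.05 was found for 1 of them, and over all genes for 6920 of 18193. The 7 markers of plasmacytoid dendritic cells included 1 that rose, Ly6d, and 0 that fell, and the share that rose, 14.3%, is that of all genes. In whole liver, fewer cells of a type and less RNA per cell cannot be told apart, and the part of these markers in the results was not tested.

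Control probe sets for the 3′ and 5′ ends of actin and Gapdh transcripts differed by 0.792 to 0.881 log2 units in untreated Atp7b-/-, by 0.617 to 0.784 in wild type and by 0.541 to 0.739 in zinc-treated liver. The difference, which is larger when RNA is less intact, was larger on every untreated mutant array than on any other array. It thus went with the group, and its part in the results was not tested.

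Genes upstream of the response were mostly not called. Of 10 interferon genes, only Ifna2 fell in Atp7b-/- (by 0.66, adjusted p = 0.00036) and rose with zinc (by 0.40, adjusted p = 0.03). The share that fell, 10%, is near the 10.3% of all genes, and 2 fell after median centring. With zinc 1.7% of all genes rose. The rise of Ifna2 was not called without zinc-treated replicate 1, 3 or 4 or Atp7b-/- replicate 1, 3 or 4, with adjusted p up to 0.0833. It was also lost without both zinc-treated arrays with pancreatic transcripts (0.0823). Its levels of 5.61 ± 0.06, 4.95 ± 0.19 and 5.35 ± 0.14 were low for these arrays, and it has near-identical relatives that short probes may not separate. Of 10 receptors, kinases and STAT proteins 0 were called by limma in any comparison, with 4, 4 and 1 at an unadjusted p under 0.05 in the order of the comparisons above. Over all 18193 genes 6920, 3988 and 3953 had such a p, in the same order. In the first comparison, 2 of the 10 fell after either other scaling. Of 18 adaptors and kinases of the sensing pathways, 2 fell in Atp7b-/-: Trim25 by 0.45 (adjusted p = 0.014) and Traf6 by 0.24 (adjusted p = 0.048). That share, 11.1%, is near the 10.3% of all genes that fell, and the count became 4 after median centring, 5 after quantile normalization and 1 without Atp7b-/- replicate 1 or without the zinc-treated arrays with pancreatic transcripts. Traf6 was also not called without wild type replicate 1, 2 or 4, any 1 zinc-treated array, or Atp7b-/- replicate 2 or 4, with adjusted p up to 0.143, or when all its probe sets were averaged (0.471). Trim25 activates RIG-I by ubiquitination and Traf6 is a ubiquitin ligase of several innate pathways.

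Genes that restrain interferon signalling or remove stray nucleic acids moved both ways in Atp7b-/- liver. Of 16, 5 rose (31.25%, against 14.3% of all genes) and 4 fell (25%, against 10.3%). These counts became 3 and 4 after median centring and 1 and 4 after quantile normalization. Over all 16 genes, called or not, changes ran from -0.41 to 1.25, and the gene at 1.25 was not called. Rnaseh2b, a subunit of the nuclease that removes RNA from RNA-DNA hybrids, rose by 0.79 (adjusted p = 5.6e-06). Its difference of -0.31 with zinc (adjusted p = 0.025) was not called after median centring (0.0664) or quantile normalization (0.0964), without any 1 of the zinc-treated arrays or Atp7b-/- replicate 2 or 4 (up to 0.075), or without both zinc-treated arrays with pancreatic transcripts (0.15). Adar, which edits double-stranded RNA, fell by 0.31 (adjusted p = 0.02), though not without wild type replicate 1 (0.0585) or Atp7b-/- replicate 4 (0.0597), and Pias1, a SUMO ligase that dampens cytokine signalling, by 0.35 (adjusted p = 0.0024). With all probe sets of a gene averaged, neither Adar (0.119) nor Pias1 (0.948) was called.

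Class I antigen presentation, which the immunoproteasome and Tap1 serve, had 3 of 12 further genes that rose and 1 that fell, against 14.3% and 10.3% of all genes. Tap2, the partner of Tap1 in the peptide pump, rose by 0.59 (adjusted p = 0.00018). Its difference of -0.31 with zinc (adjusted p = 0.042) was not called after median centring (0.0825) or quantile normalization (0.132), without both zinc-treated arrays with pancreatic transcripts (0.247), or without any 1 of the 8 mutant arrays or wild type replicate 2 or 3. Nlrc5, the transactivator of class I genes, rose by 0.59 (adjusted p = 0.0054) and Psme1, a proteasome activator subunit, by 0.40 (adjusted p = 0.0018). Pdia3, a chaperone of the loading complex, fell by 0.37 (adjusted p = 0.01), and was not called when all its probe sets were averaged (0.0739). The class I heavy chain H2-K1 and its light chain B2m, named after their values were seen, changed by -0.09 (interval -0.24 to 0.07) and 0.05 (interval -0.10 to 0.21) and were not called.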

How the data were processed

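The deposited table holds 1 column per array of log2 intensities, which the authors had normalized between arrays by a method not given in the sources used here. RNA was isolated with Trizol and an RNeasy kit and hybridised at a core facility, per the labels' protocols. No value was missing. Array medians lay between 5.63 and 5.71, and the values were used without further scaling. Of 45101 probe sets, 64 were controls, 34945 carried 1 gene symbol, 932 several and 9160 none. The probe set with the highest mean stood for each of 18193 genes. A single limma fit (version 3.58.1, under R 4.3.3; lmFit, contrasts.fit and eBayes) modelled the means of the 3 groups from all 12 arrays, with Benjamini-Hochberg adjustment over all genes within a comparison. A gene was said to rise or fall at an adjusted p under 0.05. The fit was tested on simulated data. Values after ± are SDs of 4 arrays, intervals are 95% intervals of the fit, and the number of arrays limits the precision.

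All 36 genes of the set were described. The members and all further lists were chosen with earlier results of these data known, and no p-value was computed over a list. Of each further list, up to 4 genes with the smallest adjusted p in a comparison could be named. Alternatives were 2 other scalings, 2 other choices of probe sets, a filter on dim genes, another variance model, a replicate block, fits of 2 groups, each array left out in turn, and both zinc-treated arrays with pancreatic transcripts left out. Promoters and coordinates are RefSeq's (GRCm38.p6), and 8 measured members had no promoter window.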

Additional observations from a re-analysis of the deposited data

Results flagged for a closer look

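Of 102 groups of 4 arrays (34 genes in 3 groups), 5 held 1 array far from the other 3, its gap to the nearest taking up more of the group's range than Dixon's 95% limit allows, and chance alone gives about 1 in 20. In Atp7b-/- liver, replicate 1 was far above the other arrays for Irf7, at 8.08 against 7.36 to 7.46, and for Trim30a, at 7.15 against 6.42 to 6.54. Replicate 4 of Atp7b-/- was far below the others for Dhx58, at 5.83 against 6.22 to 6.26. Zinc-treated replicate 2 was the highest for Ifit3, at 7.22 against 6.89 to 6.91, and wild type replicate 3 for Parp14, at 8.58 against 8.16 to 8.23.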

How the results depend on the processing

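None of the 34 genes changed direction under an alternative that called it. In Atp7b-/- against wild type, 8 genes rose as reported, but 5 after quantile normalization and 5 when all probe sets of a gene were averaged, and 5 to 8 when each array was left out in turn. There the median of the set was -0.21 and the effectors' median minus that of the interferon gamma and immunoproteasome genes was -0.32 when only genes above the median level were kept, which left 27 of the 34, in place of -0.39 and -0.10. In zinc-treated against untreated Atp7b-/- liver, 2 genes rose after quantile normalization, among genes above the median level and with the replicate block, 0 without the zinc-treated arrays carrying pancreatic transcripts, and 0 to 2 with 1 array left out. In that comparison 2 fell among genes above the median level, with the replicate block and in the fit of 2 groups, and 1 to 2 with 1 array left out. Against wild type, 7 genes fell in place of 12 without the zinc-treated arrays carrying pancreatic transcripts. Calls held in all 12 fits leaving out 1 array for 19 of 24 genes in Atp7b-/- against wild type, 1 of 2 with zinc against without, and 9 of 13 with zinc against wild type. Deviations of same-numbered arrays correlated at -0.13 to 0.237, so the numbers were not taken to pair arrays. Over all genes, 614 in place of 1190 were called between the mutant groups and 699 in place of 1386 against wild type without the zinc-treated arrays with pancreatic transcripts, and 689 between the mutant groups without Atp7b-/- replicate 4. Apart from fits with fewer arrays or genes, the cause of these shifts was not tested. Dim probe sets limit what can be said of Mx1, Ifit2 and Oasl2.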

Other observations

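A further list of 41 interferon-stimulated genes outside the set had 10 genes that fell and 3 that rose in Atp7b-/- liver. With zinc against untreated mutant liver 2 rose and 2 fell, and with zinc against wild type 6 fell and 0 rose. The shares that fell were 24.4%, 4.88% and 14.6% in that order, against 10.3%, 4.84% and 2.73% of all genes. Those that rose were 7.32%, 4.88% and 0%, against 14.3%, 1.7% and 4.89%. The share that fell with zinc against untreated mutant liver is thus near that of all genes. The median changes of the list were -0.12, -0.01 and -0.14. Without Atp7b-/- replicate 1, 15 fell and 3 rose in the first comparison, and without the zinc-treated arrays carrying pancreatic transcripts 2 fell in the third. In the second comparison 3 rose and 0 fell after quantile normalization, and 1 rose and 0 fell without those zinc-treated arrays. Irgm2, a GTPase related to Irgm1, fell by 0.93 in Atp7b-/- (adjusted p = 7.9e-05) and rose by 0.76 with zinc (adjusted p = 0.0019), with means of 9.68 ± 0.22 in wild type, 8.75 ± 0.20 in Atp7b-/- and 9.51 ± 0.07 with zinc. Ifitm2, which blocks virus entry, fell by 0.60 (adjusted p = 0.00022) and rose by 0.41 with zinc (adjusted p = 0.012, and 0.111 without both zinc-treated arrays with pancreatic transcripts). Cmpk2, which neighbours Rsad2, fell by 0.80 (adjusted p = 0.0038) and was still 0.69 below wild type with zinc, a fall with adjusted p = 0.024 that was not called without wild type replicate 2 or 3, zinc-treated replicate 2, 3 or 4, or both arrays with pancreatic transcripts (up to 0.131). Rtp4 fell by 0.79 (adjusted p = 0.003). In the other direction Parp12 rose by 0.67 in Atp7b-/- (adjusted p = 0.0012), and Samd9l rose by 0.66 (adjusted p = 0.0053) and fell by 0.63 with zinc (adjusted p = 0.022). That fall was not called after quantile normalization (0.0525), without zinc-treated replicate 1 or Atp7b-/- replicate 1 or 4 (up to 0.0735), or without both zinc-treated arrays with pancreatic transcripts (0.0678).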
